A study of Homo sapiens with 4 samples.

Results

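The epithelial keratins examined here were KRT7, KRT8, KRT17, KRT18, KRT19, KRT20, KRT23 and KRT80. They were taken by gene symbol from both deposited transcript tables and made up 8 of 27685 genes and 14 of 63714 RefSeq transcripts. Their RNA was measured by RNA-seq in HT-29, a human colorectal adenocarcinoma line used as a model of colonic epithelium, to ask what overexpression of TRIM40 changed. The control cells (Mock, labelled WT) carried a control vector, and the overexpressing cells stably expressed TRIM40 with an N-terminal Myc tag (Myc-TRIM40). The study made its stable cells by viral transduction and puromycin selection, and the sources used here do not say whether clones or pools were sequenced. Neither group received a further treatment, and there were 2 independent experiments, each with 1 library per condition, giving 4 libraries in all.

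Keratins form the intermediate filaments of epithelial cells. A filament is built from pairs of an acidic type I and a basic type II keratin, so both types are needed together. Simple epithelia such as that of the colon rest mainly on the type II keratin KRT8 and the type I keratins KRT18 and KRT19. KRT20 marks differentiated cells of the intestinal lining, KRT7 is typical of ductal and other glandular epithelia, and KRT17 is known as a keratin of stressed and wounded epithelium. The members comprised 3 type II keratins (KRT7, KRT8 and KRT80) and 5 type I keratins (KRT17, KRT18, KRT19, KRT20 and KRT23).

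The end of the central rod is among the most conserved parts of all keratins, and its coding sequence is shown to let the members be compared. The 24 bases below were read, 5′ to 3′, from the GENCODE v29 transcript paired with the RefSeq transcript that had the most reads. Capitals mark bases that differ from KRT8.
KRT8: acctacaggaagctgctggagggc
KRT80: acctacaggaagctgGtggagggc
KRT7: acctacCgCaagctgctggagggc
KRT17: acctacCgCCGCctgctggagggA
KRT19: acctacCgCaGCctgctCgagggA
KRT23: acGtacCgACGgctCctggagggA
KRT18: acctacCgCCGCctgctggaAgAT
KRT20: acTtacCgCCGCctTctggaAggA
The other type II members differed from KRT8 at 1 base (KRT80) and 2 bases (KRT7), and the type I members at between 6 and 9 of the 24. Such similarity bears on how reads can be assigned. Of all stretches of 50 bases in the KRT8 and KRT18 transcripts, 37.1% and 31.8% also occurred in transcripts of other genes, nearly all of them annotated KRT8 or KRT18 pseudogenes. For KRT17 the share was 17.4%, in 4 KRT17 pseudogenes and in KRT16 and KRT14. It was 0 for KRT20 and KRT23 and between 0.42% and 1.79% for KRT80, KRT7 and KRT19. Reads of KRT8, KRT18 and KRT17 could thus be divided between a gene and its copies, and how far this altered their values was not measured.

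The files place the genes on hg19, the build named in the submitters' processing notes. The type II genes lay on chromosome 12, KRT80 at 52562780 to 52585784, KRT7 at 52626954 to 52642709 and KRT8 at 53290971 to 53343650. KRT18, although type I, lay beside KRT8 at 53342655 to 53346685 of chromosome 12, and 2 KRT8 transcripts with a far upstream start overlapped it. The other type I genes lay on chromosome 17, KRT20 at 39032141 to 39041495, KRT23 at 39078948 to 39093895, KRT19 at 39679869 to 39684641 and KRT17 at 39775692 to 39780882. KRT7 overlapped the antisense gene KRT7-AS, which had between 14 and 52 reads per library. The kit kept strand, but the sources used here do not state whether the counting did.

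The libraries held between 60954602 and 67424698 reads assigned to RefSeq transcripts, as summed from the deposited counts. TRIM40, the targeted gene, had 0 reads in both controls, 272646 in Myc-TRIM40 cells of experiment 1 and 110665 in those of experiment 2. Of the colon epithelium markers EPCAM, CDH1, CDX2, VIL1, CDH17, GPA33, LGALS4 and CEACAM5, 6 of 8 had a mean of at least 1 FPKM, a read count scaled by transcript length and library size. CDX2 was low at a mean of 1.28 FPKM, and CDH17 and GPA33 averaged 0.37 and 0.98 FPKM. The summed FPKM of 6 fibroblast markers lay between 0.89 and 0.92 in control and between 1.02 and 1.39 in Myc-TRIM40 libraries, with COL1A2, COL3A1 and DCN at 0. For 3 endothelial markers it lay between 0.068 and 0.074 in control and between 0.094 and 0.13 in Myc-TRIM40 libraries, with CDH5 at 0. For 5 squamous and basal markers it lay between 0.048 and 0.12 in control and between 0.20 and 0.28 in Myc-TRIM40 libraries, with KRT5 and DSG3 at 0. IVL gave most of the squamous and basal sum, from 4 to 28 reads per library, and PECAM1 most of the endothelial sum, from 17 to 31 reads. Of all genes tested, 15.2% likewise had both Myc-TRIM40 libraries above both control libraries in FPKM. The summed FPKM of 4 leukocyte markers lay between 6.04 and 7.06 in control and between 7.35 and 12.1 in Myc-TRIM40 libraries. CD68 gave nearly all of this sum, CD3E was at 0, and PTPRC had at most 4 reads. Their part in the keratin values was not tested. In bulk RNA, fewer cells of a type and less RNA per cell cannot be told apart.

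Keratins of simple epithelium were among the most abundant RNAs of these cells. By FPKM, KRT8 stood at rank 3 among all genes in both control libraries and at rank 1 in both Myc-TRIM40 libraries. KRT18 ranked between 4 and 14, KRT19 between 140 and 174, and KRT20 between 263 and 702. The 8 keratins together took between 1.07% and 1.49% of all assigned reads, and KRT8, KRT18 and KRT19 made up between 96.3% and 98.3% of their FPKM.

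**Figure D1:**
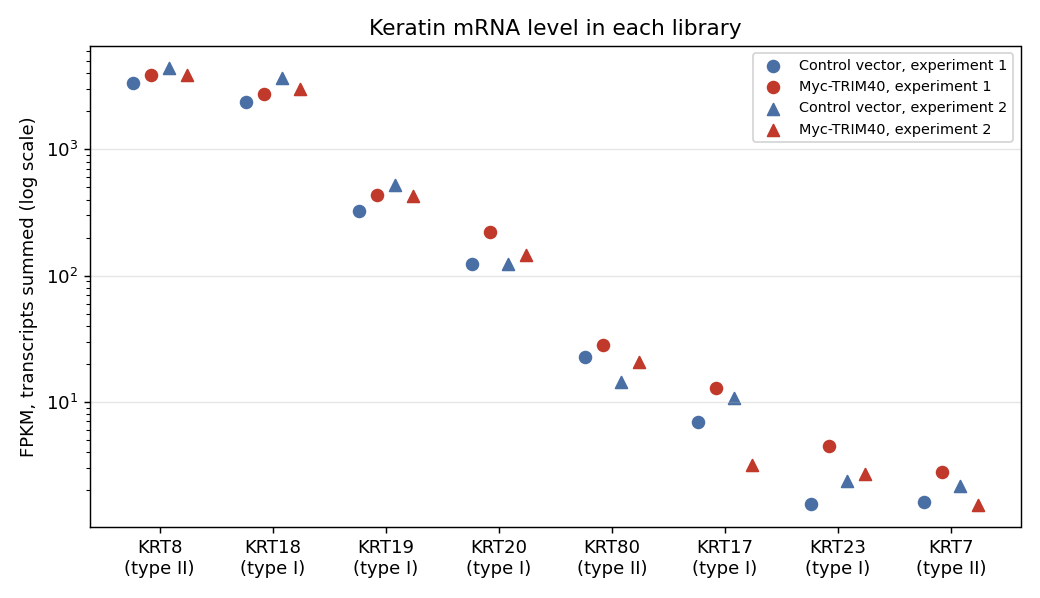
FPKM (log scale, transcripts summed) of each keratin in the 4 libraries, in order of mean level. Blue marks control vector, red Myc-TRIM40, circles experiment 1 and triangles experiment 2. KRT8 lies between 3355 and 4435 FPKM and KRT7 between 1.53 and 2.77 FPKM, and the 2 colors separate in both experiments alike only for KRT20, KRT23 and KRT80.

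The order of mean levels was KRT8, KRT18, KRT19, KRT20, KRT80, KRT17, KRT23 and KRT7. The ranges over the 4 libraries were separate between KRT18 and KRT19, between KRT19 and KRT20, between KRT20 and KRT80, and between KRT80 and KRT17. The ranges of KRT8 and KRT18 overlapped, although KRT8 was the higher in each of the 4 libraries. KRT17 and KRT23 overlapped as well, as did KRT23 and KRT7, where KRT23 was the higher in 3 of the 4 libraries.

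None of the 8 keratins passed an adjusted p of 0.05 for a change with Myc-TRIM40 (edgeR, quasi-likelihood test, experiment as a block, Benjamini-Hochberg adjustment). Over all 14868 genes tested, 0.0605% passed, 0.0404% higher and 0.0202% lower. Without adjustment, 0 of 8 had a p under 0.05 in edgeR and in DESeq2, against 4.54% and 3.65% of all genes. limma on log2(FPKM + 1) gave 1 of 8, KRT20, against 4.85%, and DESeq2 and limma also gave 0 of 8 after adjustment, against 0.363% and 0.0202% of all genes. All 8 passed the filter on low counts. The median log2 fold change was 0.03 for the members and 0.04 for all genes tested. Within the experiments the members moved in opposite directions. Their median log2 ratio of FPKM + 1 was 0.47 in experiment 1, against 0.03 for all genes, and -0.23 in experiment 2, against 0.08. With 2 libraries against 2, an exact two-sided permutation test that ignores the pairing by experiment gives 0.333 at the least, and no such test was run on single values.

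**Figure D2:**
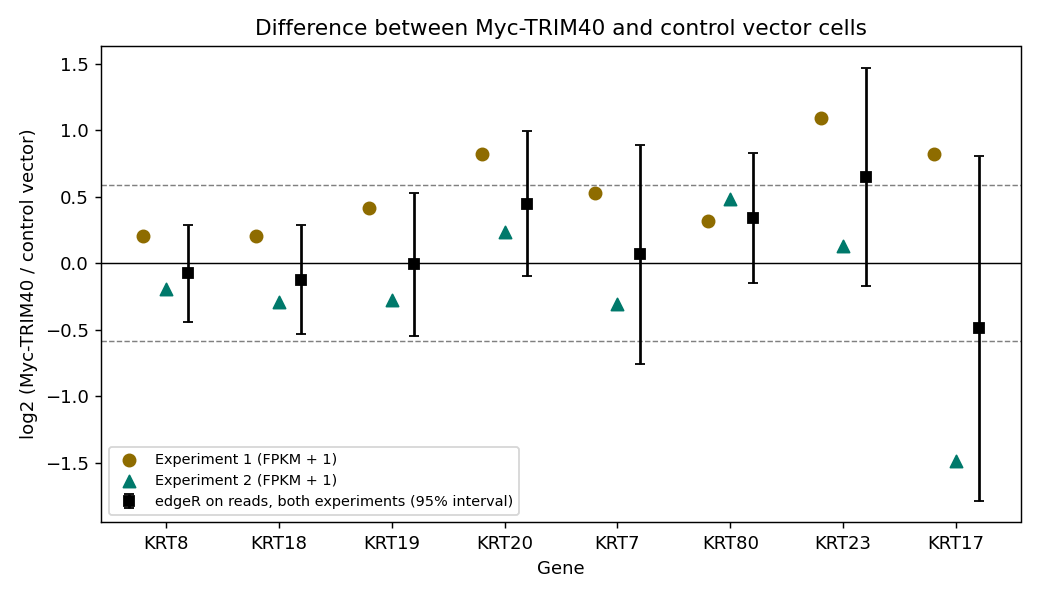
log2 difference between Myc-TRIM40 and control vector cells for each keratin. Circles and triangles are the ratios of FPKM + 1 in experiments 1 and 2, black squares are the edgeR estimates from reads with their 95% intervals, and dashed lines mark 1.5-fold. Every interval includes 0, and the widest is that of KRT17, from -1.78 to 0.81.

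The 3 abundant keratins of simple epithelium stood a little higher in Myc-TRIM40 cells in experiment 1 and a little lower in experiment 2. KRT8 had 3355 FPKM in control and 3868 in Myc-TRIM40 cells of experiment 1, and 4435 and 3884 FPKM in experiment 2. The control libraries differed more from each other than either did from the Myc-TRIM40 libraries, which were nearly equal. The KRT8 log2 fold change was -0.08 (standard error 0.16, edgeR adjusted p = 0.947), with a 95% interval from 0.74-fold to 1.22-fold.

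KRT18, the type I partner of KRT8, had 2391 and 2752 FPKM in control and Myc-TRIM40 cells of experiment 1, and 3680 and 3008 FPKM in experiment 2. Both Myc-TRIM40 values lay between the control values. Its log2 fold change was -0.12 (standard error 0.18, edgeR adjusted p = 0.920), with an interval from 0.69-fold to 1.22-fold.

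KRT19, the smallest keratin, which lacks the tail domain of the others, had 325.3 and 434.6 FPKM in experiment 1 and 518.3 and 427.7 FPKM in experiment 2. Again the control values lay outside the Myc-TRIM40 values on both sides. The log2 fold change was -0.01 (standard error 0.23, edgeR adjusted p = 0.998), with an interval from 0.69-fold to 1.44-fold. For KRT8, KRT18 and KRT19 the size of the difference in experiment 2 depended on the scale, and for KRT8 its direction did too. Summed over all transcripts, FPKM came to 552270 in control and 469117 in Myc-TRIM40 cells of experiment 2, and the median log2 ratio of expressed genes was 0.10 there and 0.01 in experiment 1. On TPM + 1, which fixes the sum of each library, their log2 ratios were 0.04, -0.06 and -0.04, against -0.19, -0.29 and -0.28 on FPKM + 1 and -0.32, -0.42 and -0.40 on TMM-normalized reads.

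Within each experiment, 5 keratins (KRT7, KRT8, KRT17, KRT18 and KRT19) were higher in experiment 1 and lower in experiment 2 on FPKM + 1, a pattern of 19.4% of all genes tested. The other 3 (KRT20, KRT23 and KRT80) were higher in both, as were 37.3% of all genes. None of the 8 was lower in both, against 18.8% of all genes. On TMM-normalized reads KRT23 joined the first pattern, making 6 of 8 against 21.4% of all genes, and left 2 higher in both against 28%.

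KRT20, the keratin of differentiated intestinal cells, had a higher level in the Myc-TRIM40 library of each experiment. It had 124.4 and 220.0 FPKM in control and Myc-TRIM40 cells of experiment 1, and 123.0 and 144.7 FPKM in experiment 2. The control libraries were nearly equal in FPKM, with 123.7 ± 1.0 FPKM (SD, n = 2), and both Myc-TRIM40 libraries lay above them, with 182.4 ± 53.3 FPKM (SD, n = 2). On TPM the controls of experiments 1 and 2 lay farther apart, at 272.0 and 222.7, and the Myc-TRIM40 libraries were at 491.6 and 308.4. The log2 ratio of experiment 2 was 0.11 on TMM-normalized reads, 0.23 on FPKM + 1 and 0.47 on TPM + 1. The log2 fold change was 0.45 (standard error 0.24, edgeR adjusted p = 0.888), with an interval from 0.94-fold to 1.99-fold, so a change of up to that size was not resolved from none. KRT20 and KRT23 were the 2 of 8 members whose Myc-TRIM40 libraries both lay above both control libraries in FPKM, as did 15.2% of all genes tested. None of the 8 lay below in both, against 6.48% of all genes.

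KRT23, a type I keratin found in some colorectal cancers, was present at a few FPKM. Its values were 1.56 FPKM in control and 4.44 in Myc-TRIM40 cells of experiment 1, and 2.36 and 2.68 FPKM in experiment 2. The difference was seen mainly in experiment 1, where reads went from 216 to 582. In experiment 2 reads went from 328 to 310 while FPKM was higher, with a larger share of the reads assigned to the shorter transcript. The log2 fold change was 0.65 (standard error 0.36, edgeR adjusted p = 0.888), with an interval from 0.89-fold to 2.77-fold.

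KRT80, a type II keratin with the longest transcripts of the 8, had 22.7 and 28.4 FPKM in experiment 1 and 14.3 and 20.5 FPKM in experiment 2. The Myc-TRIM40 library was the higher one in each experiment, but the groups overlapped, since the control of experiment 1 lay above the Myc-TRIM40 library of experiment 2. The log2 fold change was 0.34 (standard error 0.21, edgeR adjusted p = 0.888), with an interval from 0.90-fold to 1.77-fold.

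KRT7, usually scarce in colonic epithelium, was the least abundant member. It had 173 and 296 reads in control and Myc-TRIM40 cells of experiment 1 (1.62 and 2.77 FPKM), and 252 and 167 reads in experiment 2 (2.13 and 1.53 FPKM). The experiments went opposite ways and the groups overlapped. The log2 fold change was 0.07 (standard error 0.36, edgeR adjusted p = 0.983), with an interval from 0.59-fold to 1.85-fold.

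Of the 8 members, KRT17 differed most between the experiments. It had 678 and 1277 reads in control and Myc-TRIM40 cells of experiment 1 (6.88 and 12.9 FPKM), and 1167 and 321 reads in experiment 2 (10.7 and 3.17 FPKM). The Myc-TRIM40 libraries held both the highest and the lowest value. KRT17 was on the study's own list of changed genes from these libraries, so its values here are not independent evidence. The paper states that genes raised or lowered in common were selected. In the values here KRT17 instead went opposite ways in the 2 experiments, and the reason was not tested. The log2 fold change was -0.49 (standard error 0.57, edgeR adjusted p = 0.903), with an interval from 0.29-fold to 1.75-fold. Taken alone, experiment 1 gave 0.87 and experiment 2 gave -1.88 on TMM-normalized reads. Both values lay outside the interval, which ran from -1.78 to 0.81 in log2. The fit borrows information on spread from other genes, so this interval does not measure how far KRT17 differed between the experiments.

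A ratio of FPKM + 1 of at least 1.5-fold was reached upward in experiment 1 by KRT17, KRT20 and KRT23, 3 of 8, where 2.78% of all genes did so, and downward by none, against 0.659%. In experiment 2 none of the 8 reached it upward, against 8.54% of all genes, and KRT17 alone reached it downward, against 2.88%. No keratin reached it in the same direction in both experiments, as did 0.457% of all genes upward and 0.0874% downward. KRT17 was the 1 member to pass it in opposite directions, as did 0.296% of all genes.

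The log2 ratios of experiment 2 moved with transcript length across all genes. The Spearman correlation of the log2 ratio of FPKM + 1 with length was 0.62 in experiment 2 and 0.07 in experiment 1, across 14868 genes, which share the same libraries and are not replicates. Genes of 1000 to 1500 bases, where KRT18 and KRT19 fall, had a median of -0.26 in experiment 2, with quartiles of -0.40 and -0.06. The values of both keratins, -0.29 and -0.28, lay within those quartiles. KRT8 at -0.19 also lay within the quartiles for 1500 to 2000 bases, -0.25 and 0.04, while KRT7 at -0.31 and KRT17 at -1.49 lay below them and KRT20 at 0.23 above. KRT80, with a mean length of 3872 bases, stood at 0.49, above the quartiles of 0.03 and 0.30 for 3000 to 4000 bases. KRT23 at 0.13 lay within those of its length, -0.10 and 0.16.

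**Figure D3:**
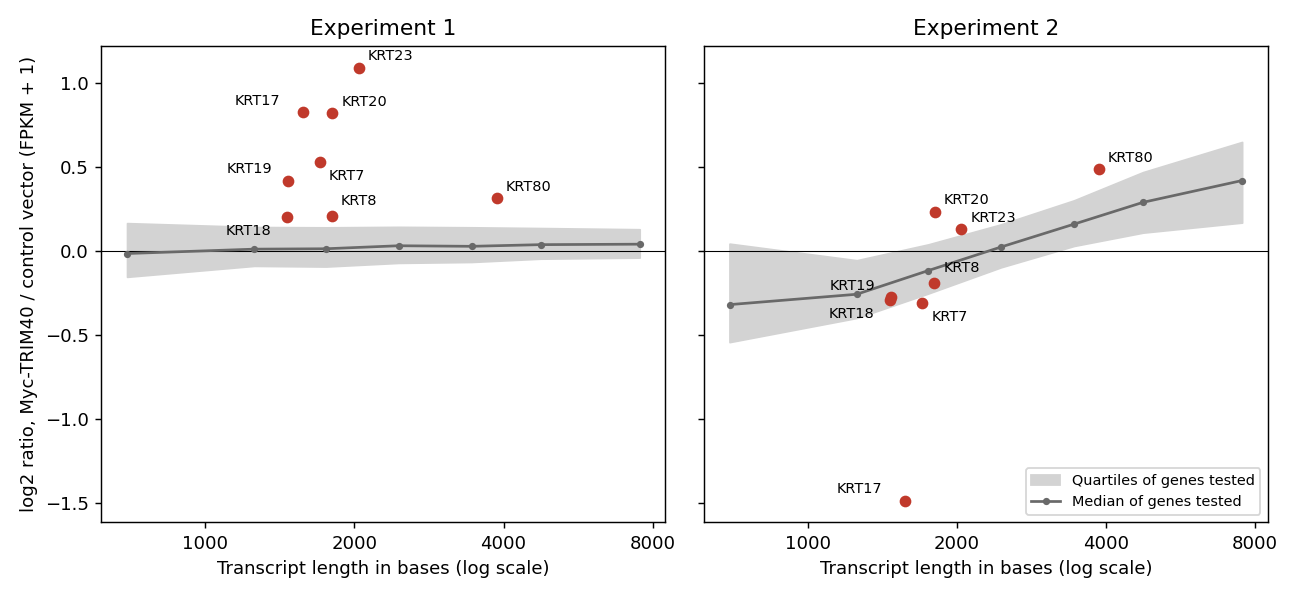
log2 ratio of FPKM + 1, Myc-TRIM40 over control vector, against transcript length (log scale) in each experiment. The grey line and band are the median and quartiles of all genes tested in 7 length classes, and red points are the keratins. In experiment 1 the band is flat and all 8 keratins lie above it, and in experiment 2 the band climbs with length, with KRT8, KRT18, KRT19 and KRT23 inside it and KRT17 far below.

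The trend on length was also subtracted within each experiment, a step added once the data had been seen. The log2 ratios of KRT8, KRT18 and KRT19 then came to 0.19, 0.19 and 0.41 in experiment 1 and to -0.09, -0.11 and -0.10 in experiment 2. Those of KRT20 were 0.80 in experiment 1 and 0.33 in experiment 2, those of KRT80 were 0.28 and 0.28, and those of KRT23 were 1.07 and 0.18. KRT17 stood at 0.81 and -1.33 and KRT7 at 0.51 and -0.19. All 5 keratins that went opposite ways in the 2 experiments on FPKM + 1 still did so.

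The balance of type II to type I keratin RNA stayed close to even. Summed FPKM of the type II members over that of the type I members was 1.19 in control and 1.14 in Myc-TRIM40 cells of experiment 1, and 1.03 and 1.09 in experiment 2. The mean was 1.11 ± 0.11 in control and 1.11 ± 0.04 in Myc-TRIM40 libraries (SD, n = 2). The direction differed between the experiments with all transcripts summed. From the transcript with most reads of each gene it did not. The ratio was then 1.130 in control and 1.133 in Myc-TRIM40 cells of experiment 1, and 1.03 and 1.09 in experiment 2. With all transcripts again, the 2 main partners were compared. KRT8 over KRT18 was 1.40 and 1.41 in experiment 1 and 1.21 and 1.29 in experiment 2. Within the type I keratins, KRT20 over KRT19 went from 0.38 to 0.51 in experiment 1 and from 0.24 to 0.34 in experiment 2. This ratio was higher in Myc-TRIM40 cells in each experiment, but the groups overlapped, and the ratio was not tested.

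Of the 4 genes with several transcripts, KRT18 was the steadiest, with its main transcript taking between 96.1% and 96.6% of reads in the 4 libraries. The main KRT8 transcript, 1796 bases long, took 91.6% of KRT8 reads in the control of experiment 1 and between 96.3% and 97.5% in the other libraries. A non-coding KRT8 transcript of 2150 bases, whose interval reaches into that of KRT18, had 12237 reads in that control library and between 1266 and 1754 in the others. For KRT80, the transcript of 3859 bases took 57.2% and 62.9% of reads in control and Myc-TRIM40 cells of experiment 1, and 67.6% and 62.6% in experiment 2.

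**Figure D4:**
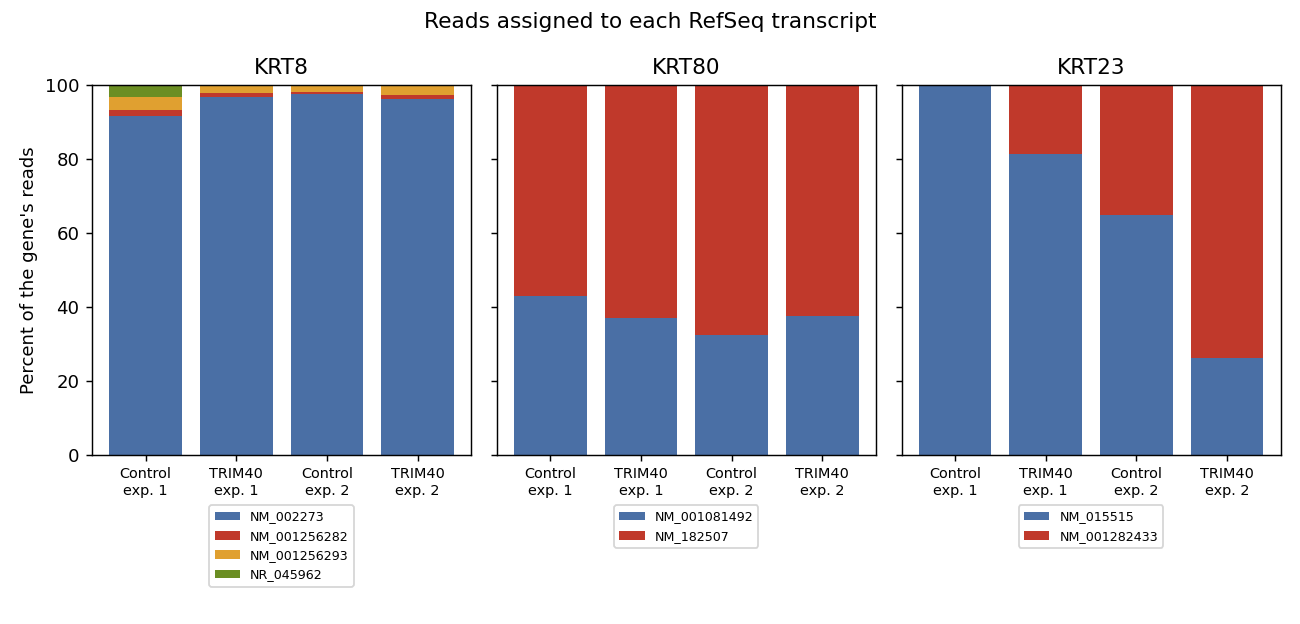
Percent of the reads of KRT8, KRT80 and KRT23 assigned to each RefSeq transcript in the 4 libraries, as stacked bars from 0 to 100. KRT8 is nearly all 1 transcript, KRT80 is divided between 2 of nearly equal length, and the shorter KRT23 transcript ranges from 0 to 73.9%.

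KRT23 was the least steady. Its shorter transcript of 1682 bases took 0 of 216 reads in control and 18.7% in Myc-TRIM40 cells of experiment 1, and 35.1% and 73.9% in experiment 2. The share was higher in the Myc-TRIM40 library of each experiment, but the control of experiment 2 lay above the Myc-TRIM40 library of experiment 1. These shares rest on between 216 and 582 reads per library as assigned by the authors' software, and were not tested.

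The files list 47 other keratins, most of them keratins of skin and hair. Of these, 32 were at 0 in all libraries, 8 had enough reads to be tested, and 0 of the 8 passed an adjusted p of 0.05 or an unadjusted one in edgeR, or an unadjusted one in DESeq2 or limma. Their median log2 fold change was 0.15. KRT10, KRT13 and KRT15, type I keratins of stratified and basal epithelium, were the 3 with a mean of at least 1 FPKM. KRT10 had 5.94 and 6.16 FPKM in experiment 1 and 10.2 and 7.68 FPKM in experiment 2. KRT13 stayed between 5.63 and 6.51 FPKM and KRT15 between 1.94 and 2.86 FPKM. KRT81 and KRT12 had the highest log2 fold changes, 0.94 and 0.82, and KRT83 and KRT10 the lowest, -0.41 and -0.26, but KRT81, KRT12 and KRT83 each had at most 35 reads in any library. Of 11 keratin pseudogenes in the files, KRT17P5 alone was tested, and none reached 0.1 FPKM in any library, with summed FPKM between 0.11 and 0.15 per library.

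Keratin linkers, which tie keratins to junctions and to the rest of the cell, were taken as a list together with other keratin partners. The list held 20 genes, all of them tested. None passed an adjusted p of 0.05 in edgeR, DESeq2 or limma. Of the 20, 15 had a log2 fold change above 0, with a median of 0.17 against 0.04 for all genes. The share of all genes above 0 was not computed, and neither the count nor the median was adjusted for length. On FPKM + 1, 11 of 20 were higher in both experiments, against 37.3% of all genes, and 3 lower in both, against 18.8%. At an unadjusted p under 0.05, 3 of 20 were higher in edgeR (DST, DSP and PPL), with adjusted p of 0.888 each, against 4.54% of all genes in either direction. DESeq2 and limma gave 3 as well, against 3.65% and 4.85%, upper-quartile normalization gave 2, and the fits without the experiment block and without the filter on low counts gave 0 each. DSP, desmoplakin, which anchors keratins at desmosomes, had 19.7 and 23.4 FPKM in experiment 1 and 7.37 and 15.0 FPKM in experiment 2. DST, a plakin of hemidesmosomes and other anchoring sites, had 6.46 and 8.18 FPKM in experiment 1 and 2.13 and 5.77 FPKM in experiment 2. Both had higher levels in the Myc-TRIM40 library of each experiment, with the larger difference in experiment 2. With the trend on length removed, the log2 ratios of FPKM + 1 in experiment 2 went from 0.94 to 0.49 for DSP and from 1.11 to 0.60 for DST. That of PPL went from 0.86 to 0.49. TRADD, an adaptor that binds KRT18, and SFN, the 14-3-3 sigma protein, had the lowest log2 fold changes, -0.36 and -0.28.

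Of 18 other intermediate filament genes, 11 were tested and 0 passed an adjusted or unadjusted p of 0.05 in edgeR, DESeq2 or limma, with a median log2 fold change of -0.01. The lamins of the nuclear envelope dominated, LMNA with between 305.4 and 386.2 FPKM. VIM, the mesenchymal filament protein vimentin, stayed between 0.08 and 0.23 FPKM. SYNC and IFFO2 had the highest log2 fold changes, 0.41 and 0.15, and DES and GFAP the lowest, -0.66 and -0.45, with DES and GFAP under 0.2 FPKM in every library.

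The keratins did not resemble each other most closely. Likeness was taken as the Euclidean distance between TMM-normalized log2 CPM values, centred on each gene's mean, over the 4 libraries and 14867 other genes. The nearest genes were DUSP28, CD9 and NSDHL for KRT8, and CRYL1, EMILIN2 and LENG1 for KRT18. They were MVK, AGA and RGPD4 for KRT19, MST1, RASGEF1B and NPSR1 for KRT20, and DDR1, KIF16B and DHCR7 for KRT80. For KRT7 they were ULBP2, ITGB2-AS1 and BAMBI, for KRT23 CA11, SOAT2 and CYP2J2, and for KRT17 DES, ANGPTL6 and POPDC2. The nearest other member of KRT19 was KRT18, at rank 80 and a distance of 0.16, and that of KRT8 was KRT18 at rank 477 and 0.19. By distance KRT17 stood farthest apart, with its nearest member, KRT7, at 1.01 and rank 196. By rank KRT80 did, with its nearest member, KRT20, at rank 3355 and a distance of 0.48. Such a distance is larger for genes that vary more between the libraries. With 4 libraries many genes lie close by.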

How the data were processed

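The authors deposited, per the file headers, read counts per RefSeq transcript as whole numbers, FPKM, transcript lengths as another value and, for experiment 2, TPM. The submitters' processing notes name HISAT2 2.1.0, StringTie 1.3.4d and hg19. Here transcripts were summed per gene, and TPM of experiment 1 was computed from FPKM. Columns of samples outside the series: none. Genes were tested with edgeR 4.0.16 (filterByExpr, TMM, quasi-likelihood, experiment as a block, Benjamini-Hochberg over 14868 genes) in R 4.3.3. The numbers pair the libraries because each deposited file holds 1 independent experiment, and same-numbered libraries deviated together (correlation 0.45 across genes). The common dispersion was 0.048. Intervals used the fit's degrees of freedom, of which a median of 7.44 over genes was borrowed from other genes. Alternatives used DESeq2 1.42.0, limma 3.58.1 and other scales. Reads assigned to transcripts came to 60954602 to 67424698 per library, and the number of experiments, 2, limits precision. The fits were also run on simulated counts with planted changes, and edgeR with the block did not find all of them.

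Named genes were the members, TRIM40, other keratins averaging 1 FPKM or more, the 2 highest and 2 lowest genes of each other list, and the 3 nearest genes of each member. PPL was named after its values were seen. The members and lists were chosen with earlier results of these data known. Coding sequences and the search for shared stretches of 50 bases used GENCODE v29 transcripts, without coordinates.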

Additional observations from a re-analysis of the deposited data

Results flagged for a closer look

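KRT17 moved at least 1.5-fold in opposite directions in the 2 experiments, with a log2 ratio of FPKM + 1 of 0.82 in experiment 1 and -1.49 in experiment 2. The difference between the experiments was not tested, since each has 1 library per condition. KRT17 kept both directions on TPM + 1 (0.90 and -1.39), with median-centred ratios (0.81 and -1.59) and with the trend on length removed (0.81 and -1.33). A pseudocount of 0.1, which cannot change a direction, gave 0.90 and -1.72. Of all genes tested, 0.121% were likewise 1.5-fold higher in experiment 1 and 1.5-fold lower in experiment 2.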

How the results depend on the processing

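Of 42 estimates for the 8 keratins under the other fits, 40 kept their direction and none passed an adjusted p of 0.05 (the lowest was 0.804). limma on log2(FPKM + 1) reversed KRT8 to 0.00695 and KRT19 to 0.0701, both near 0 in each fit. KRT20 ranged from 0.42 to 0.52, KRT80 from 0.31 to 0.40, KRT23 from 0.61 to 0.70 and KRT17 from -0.53 to -0.21. Over all genes, 6 were called higher and 3 lower with the block. Without the pairing (no replicate block), 0 and 0 were called (153 genes at an unadjusted p under 0.05). The keratins, the linker and partner genes and the other filament genes had 0 calls with and without the block. Since no gene at all was called without the block, the 0 calls of these lists there could not have been otherwise. At an unadjusted p under 0.05 the linker and partner genes went from 3 to 0. DESeq2 gave 45 and 9, no filter gave 0 and 0 (447 genes unadjusted) and limma gave 3 and 0 (721 genes unadjusted). The cause was not tested.

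With 1 experiment left out no test could be made. On TMM-normalized reads, KRT17 was 0.87 without experiment 2 and -1.88 without experiment 1, and KRT23 was 1.39 and -0.09. KRT7, KRT8, KRT18 and KRT19 also changed direction between these fits, and KRT20 and KRT80 did not. The type II to type I ratio ranged from 1.03 to 1.19 in control and from 1.09 to 1.14 in Myc-TRIM40 libraries. Of 64 within-experiment ratios on another scale, 1 changed sign, KRT8 in experiment 2 on TPM + 1. The scales were a pseudocount of 0.1, TPM + 1, median-centred ratios and ratios with the trend on length removed. A different pseudocount cannot change a sign. TMM-normalized reads were not among these scales. On them KRT23 in experiment 2 changed sign, from 0.13 on FPKM + 1 to -0.09. Adding the reads of the pseudogenes KRT8P41 and KRT18P55 left KRT8 at -0.08 and KRT18 at -0.12. These pseudogenes had at most 3 reads in any library, so the estimates could hardly move. Both estimates are counted among those of the other fits above. How far reads shared with other copies altered the values was not tested.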
